A study of Mus musculus with 12 samples.

Results

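The levels of 10 genes that govern entry into and exit from the cell cycle were followed in 3 CD4+ T cell populations sorted from mouse thymus. The genes were taken by symbol from a table of 55450 genes. They are the D cyclins Ccnd1, Ccnd2 and Ccnd3, their partner kinase Cdk6, the Cip/Kip inhibitors Cdkn1a (p21) and Cdkn1b (p27), the INK4 inhibitors Cdkn2c (p18) and Cdkn2d (p19), and the antiproliferative genes Btg1 and Btg2. All 10 were found, and all 10 passed the filter on low counts that left 15361 genes for testing. All cells came from mice that carried CD4-Cre and a Foxp3-GFP reporter, in which green fluorescence marks cells that express Foxp3, the defining factor of regulatory T cells (Tregs). Eos+ Tregs were sorted as CD4+Foxp3+ cells bearing Ccr6 and Cxcr4. Eos- Tregs were CD4+Foxp3+ cells lacking both surface receptors, and conventional T cells (Tconv) were CD4+Foxp3- cells. The Ikzf4 gene encodes Eos, a transcription factor. Although the labels give Eos+ and Eos- as genotypes, the protocol defines the Treg groups by surface sort and names no Eos deletion. Each population had 4 libraries, numbered 1 to 4. The age of the mice, and whether numbered libraries came from separate animals, is not given in the sources used here, so each p-value below is set against the spread of these libraries alone, some of which may be technical.

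D cyclins bind Cdk4 or Cdk6, and the active kinases phosphorylate the retinoblastoma family, which frees E2F factors to switch on the genes of DNA replication. INK4 proteins block Cdk4 and Cdk6 directly, while Cip/Kip proteins bind cyclin and kinase together and are best known for restraining Cdk2. Btg1 and Btg2 recruit the CCR4-NOT deadenylase to messenger RNAs, and in mice both help to hold T cells in quiescence. In mouse thymus, Ccnd3 is the D cyclin known for the expansion of immature thymocytes, and Cdkn1b is known for restraining the division of resting T cells.

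Depth was 23.94 to 37.9 M counts per library. Levels are given in CPM, counts scaled to library totals that were adjusted by TMM factors. Levels of different genes are compared only after division by annotated exon length (CPM per kb). That length joins all annotated exons of a gene, and the length of the transcripts in use was not measured. Comparisons between genes therefore hold for this length only. A difference is given as a log2 change from edgeR, the population named first over the other, with its standard error (SE). It is called when the p-value adjusted by the Benjamini-Hochberg method over all 15361 genes is under 0.05. The summed level of 6 Treg markers was 2931 to 4099.8 CPM in Eos+ Tregs, 2043 to 3506 CPM in Eos- Tregs and 314 to 426 CPM in Tconv, and Ikzf4 averaged 314 ± 17.5, 171 ± 12.7 and 25.3 ± 2.22 CPM in these populations (SD, n = 4 each). Foxp3 stood at most at 55.0 CPM in the Treg libraries numbered 1, against up to 862 CPM in the others. The summed level of 12 B cell markers was 1402 to 1843 CPM in Eos+ Tregs, 177 to 476 CPM in Eos- Tregs and 235 to 409.7 CPM in Tconv, with none of the 12 at 0 in a whole group. Dendritic cell and macrophage markers summed to 146 to 226, 67.6 to 173 and 91.9 to 122 CPM, CD8 and NK markers to 127 to 188, 54.1 to 129 and 142 to 507 CPM (Ncr1 at 0 in Tconv), and epithelial and stromal markers to 146 to 195, 238 to 339 and 205 to 236 CPM in Eos+ Tregs, Eos- Tregs and Tconv. Of the 14 epithelial and stromal markers, Cdh5 was at 0 in Eos+ Tregs, 5 genes, Foxn1 among them, in Eos- Tregs, and 4, Foxn1 again among them, in Tconv. Most of the epithelial and stromal sum was Pecam1, at 136 ± 27.3, 268 ± 45.1 and 204 ± 15.3 CPM in Eos+ Tregs, Eos- Tregs and Tconv (SD, n = 4 each). Epcam of the same list ran otherwise, at 30.4 ± 6.75, 12.7 ± 2.35 and 6.93 ± 0.658 CPM (SD, n = 4 each). It was called higher in Eos+ Tregs than in Eos- Tregs and Tconv (edgeR adjusted p = 0.000652 and 3.79e-06). Most of the CD8 and NK sum in Eos+ Tregs was Nkg7, at 133 ± 23.4 CPM (SD, n = 4). Of the 7 CD8 and NK markers tested, 4 were called lower and none higher in Eos+ Tregs than in Tconv. Of all tested genes, 13.0% were called lower there. Klrb1c, 1 of the 4, was 1.88 ± 1.95 against 51.8 ± 33.3 CPM (SD, n = 4 each, edgeR adjusted p = 0.00168). In bulk samples of this kind, fewer cells of a type and less RNA per cell cannot be told apart.

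Eos+ Tregs held less transcript of Ccnd2, Ccnd3 and Cdkn2d than Eos- Tregs, and less of Ccnd3 and Cdkn2d than Tconv. Btg1 was higher in both Treg populations than in Tconv. Against Eos- Tregs, 3 of the 10 genes were called in Eos+ Tregs, all lower, where 16.3% of all tested genes were called in either direction and 6.45% were called lower and 9.82% higher. Against Tconv, 2 genes were lower and 1 higher in Eos+ Tregs, where 13.0% of tested genes were called lower, 17.3% higher and 30.3% in either direction, so 3 of 10 was close to the background share. In Eos- Tregs against Tconv, 1 of 10 was called, higher, against a background of 14.6% in either direction, 8.76% higher and 5.89% lower. The median log2 change of the 10 genes was -0.16, -0.05 and 0.11 in these comparisons, beside 0.003, -0.008 and -0.012 over all tested genes. The groups' libraries did not overlap for 3, 3 and 1 of the 10 genes, against 20.0%, 33.1% and 20.1% of all genes. Libraries of equal number deviated together across genes. With the replicate number as a block, 4, 6 and 4 of the 10 genes were called in these comparisons. Of all tested genes, that fit called 22.8%, 36.3% and 21.5%. The comparisons share libraries and are not separate evidence.

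**Figure D1:**
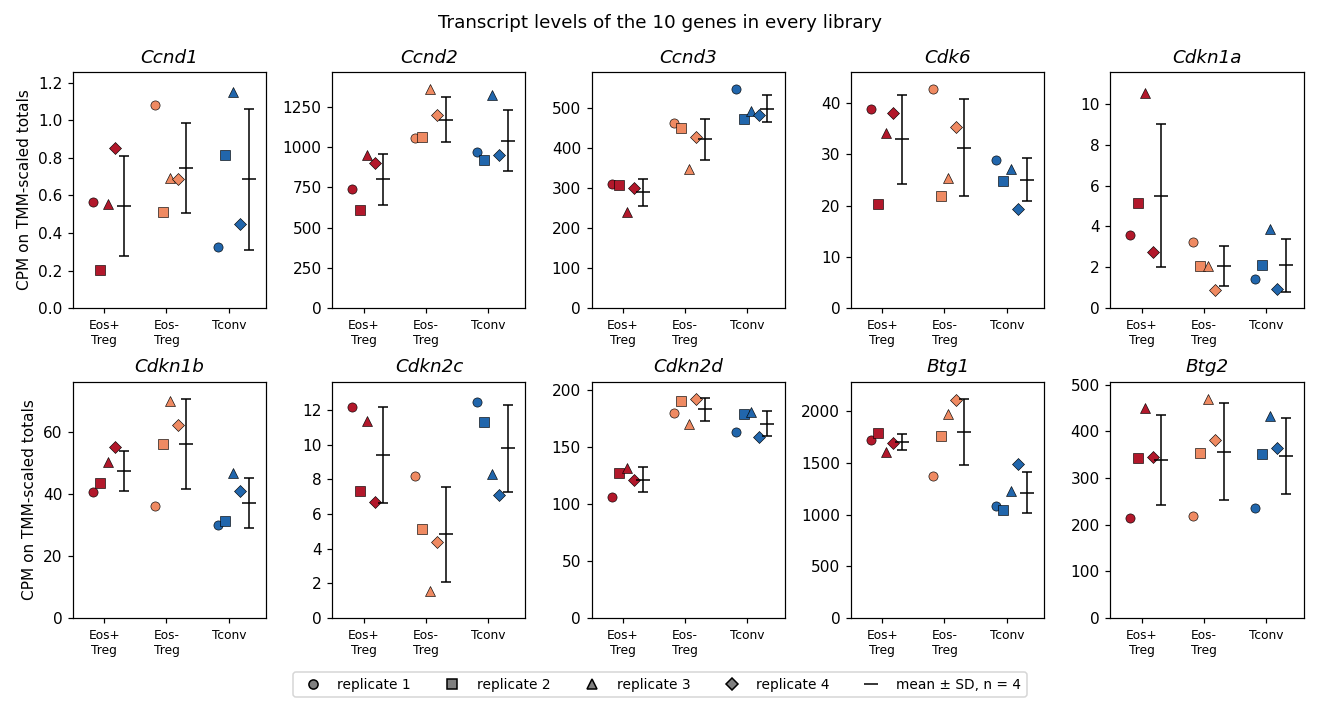
Level of each of the 10 genes (CPM on TMM-scaled totals, linear axis from 0) in Eos+ Tregs, Eos- Tregs and Tconv, with 1 marker per library shaped by replicate number and the mean ± SD (n = 4) beside it. Ccnd3 and Cdkn2d in Eos+ Tregs lie below every library of both other populations, while Btg2 spans the same range in all 3.

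Ccnd3 (ENSMUSG00000034165.16, chromosome 17, 47505051 to 47599691, plus strand, mm10) had 311, 309, 239 and 301 CPM in Eos+ Treg libraries 1 to 4, 464, 451, 349 and 428 CPM in Eos- Treg libraries, and 548, 474, 493 and 482 CPM in Tconv libraries. The 3 ranges did not overlap, and the order was Eos+ Tregs lowest, Eos- Tregs next and Tconv highest. Eos+ Tregs were lower than Eos- Tregs by a log2 change of -0.54 (SE 0.11, edgeR adjusted p = 0.00386), 1.46-fold. They were lower than Tconv by -0.78 (SE 0.11, edgeR adjusted p = 0.000114), 1.72-fold. Between the neighbours Eos- Tregs and Tconv the log2 change was -0.24 (SE 0.11), which did not pass (edgeR adjusted p = 0.164). A fit with the replicate number as a block called it at -0.25 (edgeR adjusted p = 0.0381), and this call was lost in the block without the 3 libraries numbered 1 (edgeR adjusted p = 0.0981). Libraries of equal number deviated together across genes, so values of this fit are given mainly where they change a call. The summed level of 9 T cell markers followed the same order as Ccnd3, at 6369 to 6958 CPM in Eos+ Tregs, 7510.1 to 8226 CPM in Eos- Tregs and 8971 to 9711 CPM in Tconv, and the part of this, or of the B cell markers, in the Ccnd3 result was not tested. Ccnd3 shares 361 exon bases with Bysl, which stood at 31.8 ± 6.93 CPM in Eos+ Tregs, 33.9 ± 6.53 CPM in Eos- Tregs and 47.8 ± 5.82 CPM in Tconv (SD, n = 4 each), and without strand, reads from the shared bases cannot be told apart.

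The 250 bases before the first annotated start of Ccnd3 are shown as a description. Which start these cells use, and any link of these bases to the Ccnd3 level, was not tested. The bases lie at chr17:47504801-47505050 (plus strand, RefSeq GRCm38.p6). The capitals mark a match to TGTTTAC, core letters shared by FoxO and other forkhead factors.
Ccnd3 upstream: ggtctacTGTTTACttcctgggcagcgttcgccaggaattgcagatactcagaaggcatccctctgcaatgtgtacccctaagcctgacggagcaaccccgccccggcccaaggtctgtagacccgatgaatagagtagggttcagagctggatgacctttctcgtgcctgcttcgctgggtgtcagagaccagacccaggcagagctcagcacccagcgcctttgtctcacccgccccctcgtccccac
A second annotated Ccnd3 start had no TGTTTAC match in its window.

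Ccnd2 (ENSMUSG00000000184.12, chromosome 6, 127125162 to 127152193, minus strand), the D cyclin induced by cytokine and antigen receptor signals in lymphocytes, had 738, 610.1, 954 and 899 CPM in Eos+ Tregs, 1059.9, 1066, 1360.5 and 1198.5 CPM in Eos- Tregs, and 968, 921, 1322.5 and 952 CPM in Tconv. Every Eos+ Treg library was below every Eos- Treg library, while Eos+ Treg library 3 lay within the Tconv range. The log2 change in Eos+ Tregs against Eos- Tregs was -0.55 (SE 0.15, edgeR adjusted p = 0.0287), 1.46-fold lower. Without the block, this call was lost without Eos+ Treg library 1 or 2 (edgeR adjusted p = 0.0749 and 0.0772), without Eos- Treg library 3 or 4 (0.0819 and 0.0603), and without the 3 libraries numbered 1 (0.0703). With the replicate block Ccnd2 was called lower at -0.56 (SE 0.08, edgeR adjusted p = 0.000774). Within each replicate number the Eos+ Treg library was below the Eos- Treg library, by log2 differences of -0.81 to -0.41. Against Tconv, Ccnd2 in Eos+ Tregs changed by -0.38 (SE 0.15, edgeR adjusted p = 0.0844), which did not pass, and with the replicate block it was called at the same -0.38 (edgeR adjusted p = 0.00361). Eos- Tregs and Tconv, the neighbours at the top of the order, differed by 0.17 (95% interval -0.16 to 0.50), within their spread. Ccnd2 shares 740 exon bases with the genes Gm43126 and 9330179D12Rik.

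Ccnd1 (ENSMUSG00000070348.5, chromosome 7, 144929931 to 144939925, minus strand), the D cyclin typical of non-lymphoid tissues, was near the limit of detection. It had 0.564, 0.201, 0.554 and 0.851 CPM in Eos+ Tregs, 1.08, 0.513, 0.691 and 0.689 CPM in Eos- Tregs, and 0.327, 0.816, 1.15 and 0.447 CPM in Tconv, from 73, 88 and 87 counts in all over the 4 libraries of each group. The ranges overlapped in every pair, and the interval of the log2 change in Eos+ Tregs against Eos- Tregs, -1.69 to 0.79, allows a sizeable difference either way. The gene shares 1100 exon bases with LTO1, which stood at 16.6 ± 2.98 CPM in Eos+ Tregs, 23.3 ± 1.12 CPM in Eos- Tregs and 21.4 ± 2.98 CPM in Tconv (SD, n = 4 each), and without strand, reads from the shared bases cannot be assigned to either.

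Per length of all annotated exons, Ccnd2 was the leading D cyclin of all 3 populations. These lengths were 9409 bases for Ccnd2 and 8775 bases for Ccnd3. With shorter transcripts in use, the order and the parts of the sum could differ. It stood at 85.1 ± 16.6 CPM per kb in Eos+ Tregs, 124 ± 15.04 CPM per kb in Eos- Tregs and 111 ± 20.1 CPM per kb in Tconv, while Ccnd3 stood at 33.1 ± 3.88, 48.2 ± 5.86 and 56.9 ± 3.77 CPM per kb in Eos+ Tregs, Eos- Tregs and Tconv (SD, n = 4 each). Of the summed D cyclin level per length, the Ccnd2 part was 71.5% for Eos+ Tregs, 71.8% for Eos- Tregs and 65.7% for Tconv. The sum itself was 118 ± 14.1 CPM per kb in Eos+ Tregs, 173 ± 9.37 CPM per kb in Eos- Tregs and 168 ± 20.3 CPM per kb in Tconv (SD, n = 4 each), and all 4 Eos+ Treg libraries lay below all 8 others.

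**Figure D2:**
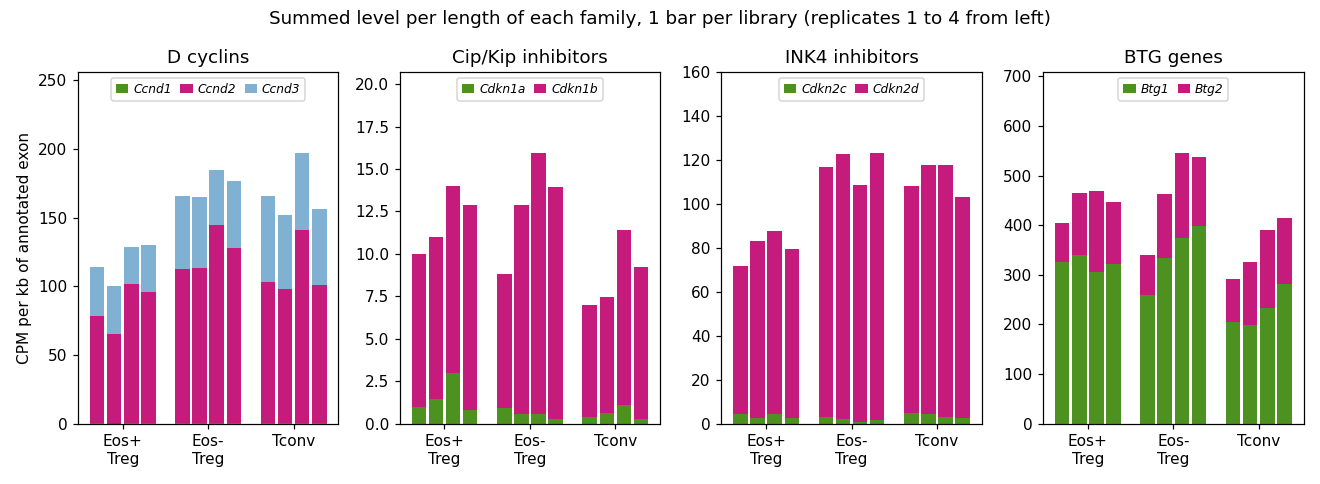
Summed level per length (CPM per kb of annotated exon) of the D cyclins, Cip/Kip inhibitors, INK4 inhibitors and BTG genes, with 1 stacked bar per library, replicates 1 to 4 from the left, in Eos+ Tregs, Eos- Tregs and Tconv. Ccnd2, Cdkn1b, Cdkn2d and Btg1 carry most of their family's level in each population, and Ccnd1 is too low to be seen.

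Cdk6 (ENSMUSG00000040274.11, chromosome 5, 3341485 to 3531008, plus strand), the D cyclin partner prominent in thymocytes, had 38.9, 20.4, 34.2 and 38.1 CPM in Eos+ Tregs, 42.7, 21.9, 25.3 and 35.4 CPM in Eos- Tregs, and 28.9, 24.7, 27.2 and 19.4 CPM in Tconv. The populations overlapped in every pair, and library 2 was the lowest in both Treg populations. Its log2 change was 0.07 (95% interval -0.45 to 0.59) in Eos+ against Eos- Tregs, 0.39 (-0.13 to 0.91) in Eos+ Tregs against Tconv, and 0.32 (-0.20 to 0.84) in Eos- Tregs against Tconv, none of them called. Cdk4, the other partner kinase, averaged 225 ± 23.8 CPM in Eos+ Tregs, 188 ± 34.6 CPM in Eos- Tregs and 242 ± 14.8 CPM in Tconv (SD, n = 4 each) and was not called in any pair by edgeR without the block. With the replicate block Cdk4 was called higher in Eos+ than in Eos- Tregs at 0.27 (edgeR adjusted p = 0.0258) and lower in Eos- Tregs than in Tconv at -0.38 (edgeR adjusted p = 0.00473). Cdk4 is no member of the 10 and was named after its values were seen.

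Cdkn2d (ENSMUSG00000096472.2, chromosome 9, 21288410 to 21291407, minus strand), an INK4 inhibitor of Cdk4 and Cdk6, had 106, 126, 131 and 121 CPM in Eos+ Tregs, 179, 190.2, 169.99 and 191 CPM in Eos- Tregs, and 163, 179, 180.3 and 159 CPM in Tconv. All Eos+ Treg libraries were below all 8 others, and Eos- Tregs and Tconv overlapped. The log2 change in Eos+ Tregs was -0.59 against Eos- Tregs (SE 0.08, edgeR adjusted p = 0.000379), 1.51-fold lower. Against Tconv it was -0.49 (SE 0.08, edgeR adjusted p = 0.000502), 1.40-fold lower. Both calls held without any 1 library, with adjusted p between 0.000761 and 0.00326 over those fits. Eos- Tregs against Tconv gave 0.10 (95% interval -0.07 to 0.28), an interval that stays below the size of either Eos+ Treg change. No exon base of Cdkn2d is shared with another gene of the annotation.

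Cdkn2d, an inhibitor of D cyclin kinases, and Ccnd3, an activator of them, were both lowest in the same 4 libraries, and over the 12 libraries their log2 CPM had a Pearson r of 0.76, as a description, since libraries share population and depth. The 250 bases before the Cdkn2d start are shown for comparison with Ccnd3. They lie at chr9:21291210-21291459 (minus strand, RefSeq GRCm38.p6), and the capitals mark a match to the p53 decamer, which overlaps a GC box by 2 bases.
Cdkn2d upstream: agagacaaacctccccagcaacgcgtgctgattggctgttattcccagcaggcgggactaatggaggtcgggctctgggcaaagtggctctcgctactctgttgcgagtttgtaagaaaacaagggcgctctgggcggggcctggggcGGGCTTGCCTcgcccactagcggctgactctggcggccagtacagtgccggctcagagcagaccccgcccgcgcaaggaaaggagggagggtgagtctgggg
No TGTTTAC match lies in the Cdkn2d window, which says only that these letters are not in it.

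Cdkn2c (ENSMUSG00000028551.14, chromosome 4, 109660876 to 109667189, minus strand), the other INK4 inhibitor measured, was the lower of the pair per length, at 3.50 ± 1.03 CPM per kb in Eos+ Tregs, 1.79 ± 1.01 CPM per kb in Eos- Tregs and 3.65 ± 0.935 CPM per kb in Tconv, while Cdkn2d stood at 77.0 ± 7.00, 116 ± 6.44 and 108 ± 6.95 CPM per kb in Eos+ Tregs, Eos- Tregs and Tconv (SD, n = 4 each). It had 12.2, 7.35, 11.3 and 6.72 CPM in Eos+ Tregs, 8.18, 5.16, 1.56 and 4.37 CPM in Eos- Tregs, and 12.5, 11.3, 8.30 and 7.10 CPM in Tconv. Eos- Treg libraries 2 to 4 lay below every other library, and Eos- Treg library 1 lay within the range of both other populations. The log2 change was 0.97 in Eos+ against Eos- Tregs (SE 0.40, edgeR adjusted p = 0.128) and -1.03 in Eos- Tregs against Tconv (SE 0.40, edgeR adjusted p = 0.111), neither called. Without Eos- Treg library 1 both passed, at 1.33 (edgeR adjusted p = 0.034) and -1.40 (0.0277), and with the replicate block the Eos- Treg change against Tconv passed at -1.10 (0.0495), a call lost in the block without the 3 libraries numbered 1 (edgeR adjusted p = 0.072). The summed level of 35 S phase genes was 3157, 2280.0, 2447 and 2173 CPM in Eos+ Treg libraries 1 to 4, 2804, 1916, 1484.5 and 1645 CPM in Eos- Treg libraries, and 2904, 2786, 2256 and 2391 CPM in Tconv libraries. Eos- Treg library 3 was the lowest and library 1 the highest of that population in both measures, and the part of cycling cells in the Cdkn2c values was not tested. Per length, Cdkn2d supplied 95.6%, 98.5% and 96.7% of the summed level of the pair in Eos+ Tregs, Eos- Tregs and Tconv.

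Cdkn1b (ENSMUSG00000003031.14, chromosome 6, 134920401 to 134925513, plus strand), the p27 inhibitor of cyclin and Cdk2 complexes that marks resting T cells, had 40.8, 43.5, 50.3 and 55.2 CPM in Eos+ Tregs, 36.0, 56.1, 69.9 and 62.3 CPM in Eos- Tregs, and 30.0, 31.2, 46.8 and 40.8 CPM in Tconv. The populations overlapped, but within each replicate number both Treg libraries were above the Tconv library. Without the block no comparison was called, and the largest change was 0.59 in Eos- Tregs against Tconv (SE 0.20, edgeR adjusted p = 0.068). With the replicate block Cdkn1b was called higher in Eos- Tregs against Tconv at 0.58 (SE 0.11, edgeR adjusted p = 0.00477) and in Eos+ Tregs against Tconv at 0.37 (SE 0.11, edgeR adjusted p = 0.0271). Between the Treg populations the blocked change was -0.21 (95% interval -0.46 to 0.04) and was not called. The Eos- Treg change against Tconv was also called without the replicate block when Eos- Treg library 1, Tconv library 3 or the 3 libraries numbered 1 were left out (edgeR adjusted p = 0.0076, 0.0467 and 0.0188).

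Cdkn1a (ENSMUSG00000023067.14, chromosome 17, 29090976 to 29100727, plus strand), the p21 inhibitor induced by p53, had 3.57, 5.17, 10.5 and 2.76 CPM in Eos+ Tregs, 3.24, 2.05, 2.07 and 0.890 CPM in Eos- Tregs, and 1.41, 2.13, 3.88 and 0.946 CPM in Tconv. Within each replicate number the Eos+ Treg library was the highest of the 3 populations, although the ranges overlapped and Eos+ Treg library 3 alone reached 10.5 CPM. The log2 change in Eos+ Tregs was 1.42 against Eos- Tregs (SE 0.54, edgeR adjusted p = 0.0975) and 1.40 against Tconv (SE 0.54, edgeR adjusted p = 0.0695), neither called. The replicate block called both, at 1.31 (SE 0.38, edgeR adjusted p = 0.0309) and 1.40 (SE 0.37, edgeR adjusted p = 0.0128). DESeq2 without the block called both as well (adjusted p = 0.043 and 0.0322). The change against Tconv was also called without Eos+ Treg library 4 or Tconv library 3 (edgeR adjusted p = 0.0475 and 0.0284). Eos- Tregs against Tconv gave -0.02 (95% interval -1.18 to 1.14), an interval too wide to bound a difference. Cdkn1a shares 273 exon bases with AC167363.2. Per length, Cdkn1b supplied 87.4%, 94.9% and 93.5% of the summed Cip/Kip level in Eos+ Tregs, Eos- Tregs and Tconv.

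The 250 bases before the first annotated Cdkn1a start, at chr17:29090729-29090978 (plus strand, RefSeq GRCm38.p6), are shown because p21 is the textbook target of p53. The capitals mark both matches to the p53 decamer in the window.
Cdkn1a upstream: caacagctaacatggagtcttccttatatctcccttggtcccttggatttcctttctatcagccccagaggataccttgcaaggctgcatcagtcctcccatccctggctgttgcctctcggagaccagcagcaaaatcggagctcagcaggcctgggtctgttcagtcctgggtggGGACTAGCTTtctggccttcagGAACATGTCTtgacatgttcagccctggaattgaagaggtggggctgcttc
The window of the downstream start of Cdkn1a held none.

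The fit with the replicate block thus called 1 gene higher (Cdkn1a) and 3 lower in Eos+ against Eos- Tregs, where it called 13.1% of all tested genes higher, 9.67% lower and 22.8% in either direction. In Eos+ Tregs against Tconv it called 3 higher (Btg1, Cdkn1a, Cdkn1b) and 3 lower (Ccnd2, Ccnd3, Cdkn2d), against 19.8%, 16.5% and 36.3% of all genes. In Eos- Tregs against Tconv it called 2 higher (Btg1, Cdkn1b) and 2 lower (Ccnd3, Cdkn2c), against 11.3%, 10.2% and 21.5%.

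**Figure D3:**
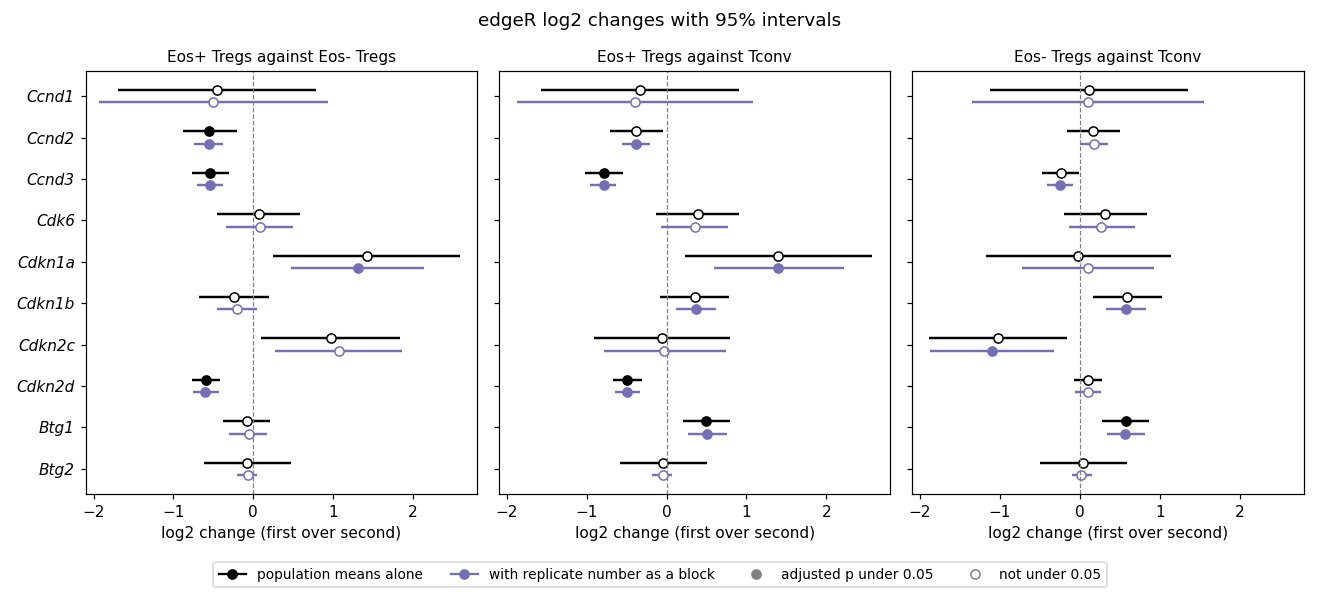
Log2 change of each gene with its 95% interval in Eos+ Tregs against Eos- Tregs, Eos+ Tregs against Tconv and Eos- Tregs against Tconv, from the fit of population means alone (black) and with the replicate number as a block (purple). Filled points have an adjusted p under 0.05. The intervals narrow with the block for Ccnd2, Cdkn1b and Btg2 and stay wide for Ccnd1.

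Btg1 (ENSMUSG00000036478.8, chromosome 10, 96617006 to 96622809, plus strand), the most abundant of the 10 genes per length, had 1719.5, 1789, 1610.3 and 1694 CPM in Eos+ Tregs, 1373, 1763, 1975 and 2104 CPM in Eos- Tregs, and 1082, 1046, 1227 and 1486 CPM in Tconv. Every Eos+ Treg library was above every Tconv library, and of the Eos- Treg libraries only library 1 fell within the Tconv range. Btg1 was higher than in Tconv by a log2 change of 0.49 in Eos+ Tregs (SE 0.14, edgeR adjusted p = 0.0153), 1.41-fold, and by 0.58 in Eos- Tregs (SE 0.14, edgeR adjusted p = 0.0132), 1.49-fold. The call in Eos+ Tregs was lost without Tconv library 2 (edgeR adjusted p = 0.0544). Between Eos+ and Eos- Tregs the change was -0.08 (95% interval -0.38 to 0.21), within their spread. Spread itself differed, at an SD of 73.7 CPM in Eos+ Tregs, 319.8 CPM in Eos- Tregs and 199.7 CPM in Tconv.

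Btg2 (ENSMUSG00000020423.6, chromosome 1, 134075170 to 134079120, minus strand), its relative and a quickly induced gene, had 215, 343, 449.7 and 344 CPM in Eos+ Tregs, 219, 354, 469.8 and 382 CPM in Eos- Tregs, and 237, 351, 433 and 365 CPM in Tconv. The 3 populations were nearly the same within each replicate number, with libraries numbered 1 lowest and those numbered 3 highest in all 3. With the replicate block the log2 change was -0.07 (95% interval -0.20 to 0.05) in Eos+ against Eos- Tregs, -0.05 (-0.18 to 0.07) in Eos+ Tregs against Tconv and 0.02 (-0.10 to 0.15) in Eos- Tregs against Tconv. These intervals stay below the size of either Btg1 change against Tconv. Per length, Btg1 stood at 323 ± 14.0, 342 ± 60.6 and 229 ± 37.8 CPM per kb in Eos+ Tregs, Eos- Tregs and Tconv, and Btg2 at 123 ± 35.0, 129.9 ± 37.8 and 126 ± 29.7 CPM per kb (SD, n = 4 each). Neither gene shares exon bases with another.

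**Figure D4:**
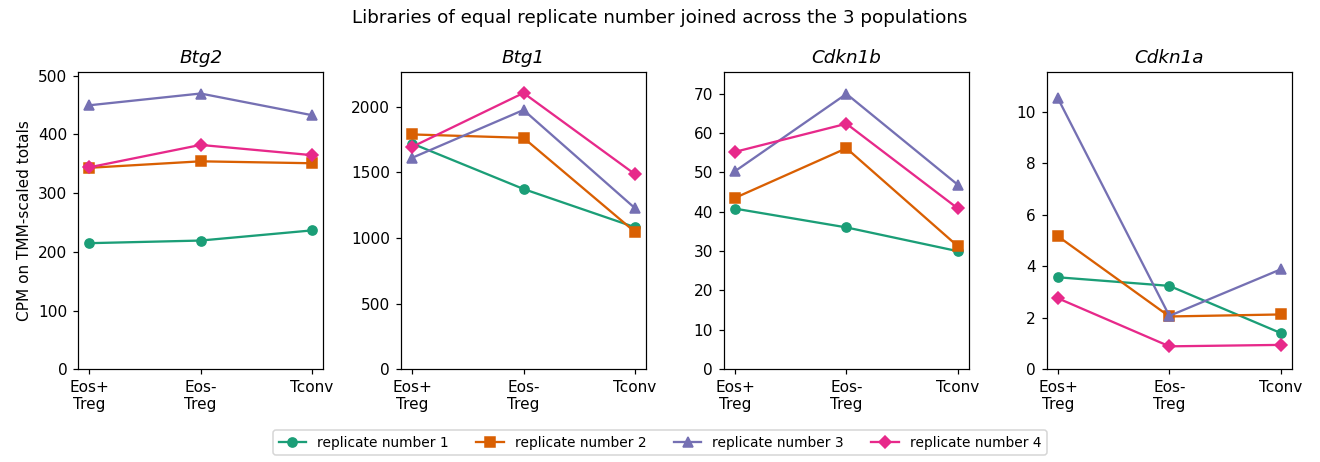
Levels (CPM on TMM-scaled totals) of Btg2, Btg1, Cdkn1b and Cdkn1a, with libraries of equal replicate number joined across Eos+ Tregs, Eos- Tregs and Tconv. The Btg2 lines run flat and apart, the Cdkn1b lines all end lower in Tconv than in either Treg population, and each Cdkn1a line is highest in Eos+ Tregs.

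The 250 bases before the starts of both genes are shown as a description, and a link of these bases to levels was not tested. They lie at chr10:96616751-96617000 (plus strand) for Btg1 and chr1:134079156-134079405 (minus strand) for Btg2, both RefSeq GRCm38.p6. The capitals mark TGTTTAC in Btg1 and, in Btg2, TGACGTCA, the cyclic AMP response element (CRE).
Btg1 upstream: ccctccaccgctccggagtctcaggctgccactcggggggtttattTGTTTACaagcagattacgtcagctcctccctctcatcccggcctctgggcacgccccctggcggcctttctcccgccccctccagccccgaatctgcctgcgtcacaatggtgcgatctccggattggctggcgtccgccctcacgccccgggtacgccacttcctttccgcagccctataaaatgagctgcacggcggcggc
Btg2 upstream: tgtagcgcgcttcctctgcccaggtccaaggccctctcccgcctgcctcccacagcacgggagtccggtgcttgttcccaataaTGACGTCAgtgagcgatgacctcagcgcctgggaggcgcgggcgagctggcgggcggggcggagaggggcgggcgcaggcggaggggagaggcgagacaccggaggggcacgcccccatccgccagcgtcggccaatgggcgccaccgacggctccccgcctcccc

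The 10 genes fell along a range from variation with population to variation with replicate number. Of the sum of squares of log2 CPM over the 12 libraries, population took 89% for Cdkn2d and 85.2% for Ccnd3, the highest shares, and 0.7% for Btg2, the lowest. Replicate number took 98.2% for Btg2, more than for 99.9% of the tested genes, and 4.7% for Cdkn2d. In between, population and number took 66.7% and 16.6% for Btg1, 56% and 36.3% for Ccnd2, 47.9% and 23.9% for Cdkn2c, 45.3% and 40.4% for Cdkn1a, and 42.1% and 47.3% for Cdkn1b. For Cdk6 number took the larger share, 46.2% against 17.9% for population, and 81.9% of tested genes had a lower number share. The shares are not on the same scale, since number has 4 levels and population 3. Where neither has an effect, number would still take the larger share on average. Over all tested genes the medians were 42% with population and 22.7% with number. The summed level of 9 double-positive thymocyte markers also differed by number, at 509.8, 267, 194 and 194 CPM in Eos+ Treg libraries 1 to 4, 527, 336, 201 and 167 CPM in Eos- Treg libraries, and 438, 449, 207 and 229.7 CPM in Tconv libraries. The part of those cells in the values of Btg2 was not tested. Among immediate early genes, which are quickly induced, number took 82.5% for Junb, 57.7% for Ier2, 41% for Fosb and 40.3% for Fos. It took 24.9% for Dusp1, 3.8% for Jun and 2.6% for Egr1. A link of these genes to Btg2 was not tested.

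**Figure D5:**
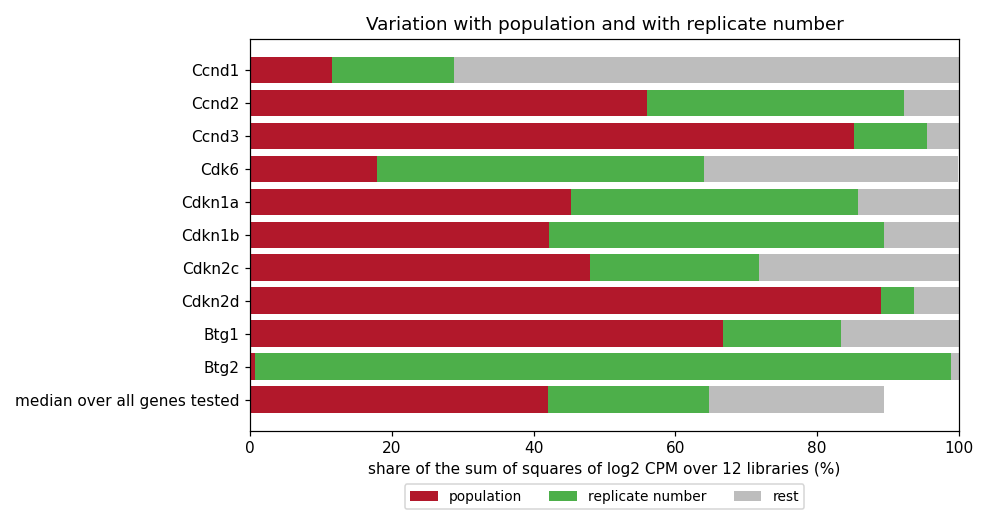
Share (%) of the sum of squares of log2 CPM over 12 libraries that goes with population, with replicate number and with neither, for each of the 10 genes. The last bar gives the medians over all tested genes, each taken separately, so that it does not reach 100. Cdkn2d and Ccnd3 are nearly all population, and Btg2 is nearly all number.

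Of the 11 annotated windows, from 250 bases before to 50 bases after a start, that the RefSeq table holds for 8 of the 10 genes, 2 held TGTTTAC on either strand (Ccnd3 and Btg1), against 3.6% of 32851 windows of all genes. TGACGTCA was in the Btg2 window and 1.8% of all windows. The E box CACGTG was in a window of Cdk6 and of Cdkn2c and in 7.2% of all windows, and the p53 decamer in a window of Cdkn1a and of Cdkn2d and in 8.4%. The E2F letters TTTGGCGC, TTTCCCGC or TTTCGCGC (1.8% of all windows), the STAT letters TTCNNNGAA (8.3%) and the Ets letters CCGGAAGT (3.9%) had no match in any of the 11. CCAAT and the GC box GGGCGG, each in over 35% of all windows (37.4% and 35.7%), were common among them. Such matches describe the letters and not the binding of a factor.

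The genes on which D cyclin kinases act were examined from lists drawn up with earlier results of these data known, and the part of the higher B cell markers of Eos+ Tregs in their counts was not tested. Among 19 genes of the pocket proteins, E2F factors and DREAM complex, 3 were higher and 2 lower in Eos+ than in Eos- Tregs, which is 26.3% of the list beside 16.3% of all genes. Rbl2 (p130), the pocket protein of resting cells, was 351 ± 42.2 CPM in Eos+ Tregs, 197 ± 16.8 CPM in Eos- Tregs and 164 ± 13.1 CPM in Tconv (SD, n = 4 each). It was higher in Eos+ Tregs by a log2 change of 0.84 against Eos- Tregs (edgeR adjusted p = 0.000129) and 1.10 against Tconv (edgeR adjusted p = 3.67e-06). E2f2, an activator of replication genes, was 49.9 ± 5.64 CPM in Eos+ Tregs, 24.4 ± 4.88 CPM in Eos- Tregs and 31.1 ± 7.21 CPM in Tconv (SD, n = 4 each), with changes of 1.03 (edgeR adjusted p = 0.00233) and 0.68 (edgeR adjusted p = 0.0139). Rb1, the founding pocket protein, was 182 ± 40.3 CPM in Eos- Tregs against 101 ± 16.6 CPM in Tconv, a change of 0.85 (edgeR adjusted p = 0.00956). In Eos+ Tregs Rb1 was 114 ± 25.1 CPM, lower than in Eos- Tregs by -0.67 (edgeR adjusted p = 0.0297). That call was lost in several fits that left out a library, and the replicate block kept it (edgeR adjusted p = 0.00134). Rbl1, another pocket protein, was lower in Eos+ Tregs than in Tconv (-0.43, edgeR adjusted p = 0.00528). Against Tconv the list counted 3 higher and 2 lower in Eos+ Tregs, and 1 higher and 2 lower in Eos- Tregs, where the replicate block gave 2 and 6. The list's median log2 change was 0.23, -0.01 and -0.19.

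Of 10 other G1 and G1/S cyclins, kinases and activators, none was called in Eos+ against Eos- Tregs by edgeR without the block, and 2 were called higher with it. Against Tconv, 1 was higher and 4 lower in Eos+ Tregs, and 1 was lower in Eos- Tregs, or 5 lower with the block. Cdc25a, the phosphatase that activates Cdk2, was 33.4 ± 5.43 CPM in Eos+ Tregs, 38.0 ± 8.88 CPM in Eos- Tregs and 81.5 ± 10.5 CPM in Tconv (SD, n = 4 each), lower than in Tconv by -1.29 (edgeR adjusted p = 0.000112) and -1.10 (edgeR adjusted p = 0.00101). Cdk2 itself was lower in Eos+ Tregs than in Tconv, at 54.1 ± 12.6 against 80.4 ± 5.37 CPM (-0.57, edgeR adjusted p = 0.0127). The list's medians were -0.02, -0.36 and -0.34. Of the 3 remaining CDK inhibitors, Cdkn2a and Cdkn2b had at most 15 counts over the 4 libraries of any population and were not tested. Cdkn1c (p57) averaged 3.45 ± 1.29, 2.21 ± 0.640 and 1.84 ± 0.644 CPM in Eos+ Tregs, Eos- Tregs and Tconv (SD, n = 4 each) and was not called. These 3 were named after their values were seen.

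Among 16 genes of p27 and cyclin D turnover, 4 were higher and 1 lower in Eos+ than in Eos- Tregs, and 5 were higher and 5 lower than in Tconv, 62.5% of the list beside 30.3% of all genes. Fbxo4 and Fbxo31, both described as ubiquitin ligase adaptors for cyclin D1, were among those higher in Eos+ Tregs than in Tconv. The transcript of cyclin D1, Ccnd1, was itself near the limit of detection. Fbxo4 was 27.4 ± 3.73 CPM in Eos+ Tregs, 13.7 ± 0.910 CPM in Eos- Tregs and 11.3 ± 1.26 CPM in Tconv (SD, n = 4 each), higher by 1.00 against Eos- Tregs (edgeR adjusted p = 0.000392) and 1.28 against Tconv (edgeR adjusted p = 1.72e-05). Fbxo31 was 87.3 ± 14.4, 68.8 ± 9.85 and 45.9 ± 3.27 CPM in Eos+ Tregs, Eos- Tregs and Tconv (SD, n = 4 each), higher than in Tconv by 0.93 in Eos+ Tregs (edgeR adjusted p = 0.000175) and 0.58 in Eos- Tregs (edgeR adjusted p = 0.0105). Among those lower was Cks1b, at 20.1 ± 8.67 CPM in Eos+ Tregs and 19.6 ± 12.2 CPM in Eos- Tregs against 51.7 ± 7.04 CPM in Tconv (SD, n = 4 each). Its changes were -1.37 and -1.40 (edgeR adjusted p = 0.0165 and 0.0279), or -1.45 and -1.57 with the block (0.00143 and 0.00199). Without the block, both calls were lost in fits that left out certain libraries. In Eos- Tregs against Tconv, 1 gene of the list was higher (Fbxo31) and 1 lower (Cks1b). The medians were 0.09, 0.01 and -0.04.

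Of 21 T cell quiescence factors, 1 was higher and 8 lower in Eos+ than in Eos- Tregs, 42.9% of the list beside 16.3% of all genes, with a median log2 change of -0.33. Klf3, a repressor of the Krüppel-like family, was 199 ± 14.4 CPM in Eos+ Tregs, 357 ± 39.7 CPM in Eos- Tregs and 124 ± 28.4 CPM in Tconv (SD, n = 4 each). It was lower in Eos+ than in Eos- Tregs by -0.85 (edgeR adjusted p = 0.00125) and higher than in Tconv by 0.68 in Eos+ Tregs (edgeR adjusted p = 0.00243) and 1.52 in Eos- Tregs (edgeR adjusted p = 1.73e-05). Il7r, the receptor of the survival cytokine IL-7, was low in Eos- Tregs, at 311 ± 112 CPM in Eos+ Tregs, 117 ± 79.4 CPM in Eos- Tregs and 408 ± 89.1 CPM in Tconv (SD, n = 4 each). It was the list's 1 gene higher in Eos+ than in Eos- Tregs, by 1.42 (edgeR adjusted p = 0.0218), and it was lower in Eos- Tregs than in Tconv by -1.81 (edgeR adjusted p = 0.00679). The first of these calls was lost without Eos+ Treg library 1 (edgeR adjusted p = 0.068), without Eos- Treg library 2, 3 or 4 (0.0659, 0.0555 and 0.0599), and in a fit of these populations alone (0.0508). With the replicate block it was called at 1.54 (SE 0.22, edgeR adjusted p = 0.000819). Bach2, a repressor that keeps T cells naive, was 112 ± 31.2 CPM in Eos+ Tregs against 208 ± 16.5 CPM in Eos- Tregs and 208 ± 7.08 CPM in Tconv (SD, n = 4 each), lower by -0.90 in both comparisons (edgeR adjusted p = 0.00182 and 0.000744). Against Tconv the list counted 3 higher and 6 lower in Eos+ Tregs (median -0.04) and 5 higher and 2 lower in Eos- Tregs (median 0.15). Peli1, a ubiquitin ligase that restrains T cell activation in mice, was higher in Eos- Tregs at 538 ± 55.4 against 298 ± 33.2 CPM in Tconv (0.85, edgeR adjusted p = 0.000108).

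Of 17 genes of the BTG/TOB family and the CCR4-NOT complex through which Btg1 and Btg2 act, 3 were lower and none higher in Eos+ than in Eos- Tregs (17.6%, beside 16.3% of all genes). The block gave 1 higher and 4 lower. Cnot6l, a catalytic deadenylase subunit, was 57.7 ± 4.43 CPM in Eos+ Tregs, 77.7 ± 9.49 CPM in Eos- Tregs and 122 ± 6.11 CPM in Tconv (SD, n = 4 each), lower in Eos+ Tregs by -0.43 against Eos- Tregs (edgeR adjusted p = 0.00776) and by -1.08 against Tconv (edgeR adjusted p = 3.13e-06). Btg3 was higher than in Tconv, like Btg1, at 34.3 ± 3.66 CPM in Eos+ Tregs and 30.2 ± 2.59 CPM in Eos- Tregs against 20.3 ± 2.68 CPM in Tconv (SD, n = 4 each), changes of 0.76 (edgeR adjusted p = 0.000603) and 0.57 (edgeR adjusted p = 0.00929). Against Tconv the list counted 1 higher and 4 lower in Eos+ Tregs and 1 higher and 1 lower in Eos- Tregs, where the block gave 2 and 3, and its medians were -0.15, -0.13 and 0.04.

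Of 21 tested genes of p53 and its targets, the setting of Cdkn1a, 10 were higher and 1 lower in Eos+ Tregs than in Tconv, 52.4% of the list beside 30.3% of all genes, with a median log2 change of 0.63. Pmaip1 (Noxa), a death gene of the Bcl2 family, was 48.3 ± 17.7 CPM in Eos+ Tregs, 11.3 ± 5.82 CPM in Eos- Tregs and 3.76 ± 1.87 CPM in Tconv (SD, n = 4 each), higher in Eos+ Tregs by 2.10 against Eos- Tregs (edgeR adjusted p = 0.00528) and 3.68 against Tconv (edgeR adjusted p = 6.42e-05). Sesn1, a stress sensor that restrains growth signalling, was 233 ± 24.3 CPM in Eos+ Tregs and 245 ± 37.3 CPM in Eos- Tregs against 115 ± 9.53 CPM in Tconv (SD, n = 4 each), changes of 1.02 (edgeR adjusted p = 1.93e-05) and 1.10 (edgeR adjusted p = 3.66e-05). In Eos+ against Eos- Tregs 4 were higher and 1 lower, or 7 and 1 with the block (median 0.28). In Eos- Tregs against Tconv 4 were higher (median 0.13). Trp53 itself averaged 209 ± 7.11, 219.9 ± 24.4 and 239 ± 15.04 CPM in Eos+ Tregs, Eos- Tregs and Tconv (SD, n = 4 each). Trp53 was named after its values were seen. As background, many of these genes also have inducers other than p53.

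Of 10 genes of the Myc and Mxd network none was called in Eos+ against Eos- Tregs by edgeR without the block, and with it Mxd1, an opponent of Myc, was called lower at -0.47 (edgeR adjusted p = 0.0231). In Eos+ Tregs 4 were higher than in Tconv, beside 17.3% of all genes, and in Eos- Tregs 3 were, beside 8.76%. The block added Mxd3, lower in Eos- Tregs than in Tconv at -1.64 (edgeR adjusted p = 0.0396). These blocked calls were singled out after their values were seen. Mxi1, which opposes Myc, was 78.0 ± 12.8 CPM in Eos+ Tregs and 76.5 ± 14.3 CPM in Eos- Tregs against 39.3 ± 1.66 CPM in Tconv (SD, n = 4 each), changes of 0.99 and 0.96 (edgeR adjusted p = 0.000225 and 0.000819). Myc itself was also higher, at 153 ± 27.6 and 150 ± 47.6 against 93.6 ± 12.1 CPM (SD, n = 4 each). Its changes were 0.71 and 0.68 (edgeR adjusted p = 0.016 and 0.0379). The Myc call in Eos- Tregs was lost with library totals in place of TMM (edgeR adjusted p = 0.0516) and in several fits that left out a library. The medians of this list were -0.04, -0.08 and 0.14. Of 35 S phase genes, 2 were higher and 1 lower in Eos+ than in Eos- Tregs, 8.57% of the list beside 16.3% of all genes, and 3 were lower in Eos- Tregs than in Tconv, beside 5.89% of all genes lower. With the replicate block 11 were higher and 2 lower in Eos+ than in Eos- Tregs, where 13.1% of all genes were higher and 9.67% lower. The block called 17 lower in Eos- Tregs than in Tconv, where 10.2% of all genes were lower. The S phase medians were 0.41, -0.11 and -0.49. Of 39 G2 and M phase genes, 1 was higher and 1 lower in Eos+ against Eos- Tregs, 5.13% of the list beside 16.3% of all genes, or 3 and 3 with the block. In Eos- Tregs against Tconv 2 were higher and 3 lower, 12.8% of the list beside 14.6% of all genes. The block gave 2 and 16 there, where 11.3% of all genes were higher and 10.2% lower. The G2 and M medians were 0.62 in Eos+ against Eos- Tregs, -0.32 in Eos+ Tregs against Tconv and -0.99 in Eos- Tregs against Tconv. In Eos+ Tregs against Tconv, 3 S phase genes were higher and 4 lower, or 3 and 7 with the block, and 1 gene of G2 and M was higher and 2 lower, where 17.3% of all genes were higher and 13.0% lower without the block.

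For the members named here, the gene outside the set whose log2 CPM was most like each over the 12 libraries was taken from 8902 genes with a mean of at least 10 CPM. For Ccnd3 it was Lat (Pearson r = 0.977), an adaptor of the T cell receptor. For Cdkn2d it was Mapk11 (0.972), a p38 kinase, for Btg1 Rabep2 (0.967), and for Cdkn1b Map1lc3b (0.959), an autophagy protein. For Ccnd2 it was Acin1 (0.949), for Cdkn1a Klhl21 (0.944), for Btg2 Stk25 (0.920), for Ccnd1 AC115631.1 (0.856) and for Cdk6 Myc (0.849). Within the set, Cdkn1b went most closely with Btg1 (0.84) and ran against Cdkn2c (-0.79), and Ccnd2 went with Cdkn2d (0.73). These values describe libraries that share population, number and depth.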

How the data were processed

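Gene expression was measured by RNA sequencing in 12 libraries, 4 per population. Libraries started from 1 ng of RNA, amplified by template switching and fragmented by a transposase, per the labels' protocols, and do not record strand. The authors deposited expected counts per gene, not scaled for depth or length. The submitters' processing notes name mm10, RSEM 1.3.1, STAR 2.7.0f and cutadapt 1.18. Their parameters and the annotation release are not given in the sources used here. Every one of the 55450 gene IDs matched GENCODE M21, from which positions and exon lengths were taken. Reads matching several genes are divided between them by RSEM, and 9.54% to 10.74% of values per library were not whole.

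Expected counts were rounded and tested with edgeR 4.0.16 (R 4.3.3), using the quasi-likelihood F test, TMM factors and filterByExpr. The model had 1 mean per population over 12 libraries, p-values were two-sided, and adjustment was by the Benjamini-Hochberg method over 15361 genes. Log2 CPM used a prior count of 2. The fit was checked on simulated counts. Alternatives were DESeq2 1.42.0, limma-voom (limma 3.58.1), other scaling, no filter, a test against 1.5-fold, the replicate block, only the 2 groups compared, and each library left out. Libraries of equal number correlated in their deviations from population means in all 12 pairs between populations (r 0.138 to 0.318), against -0.226 to 0.07 in 36 pairs of unequal number, and library names share a code per number. No 2 replicates were alike within counting error (18 pairs within populations, chi-square per degree of freedom 26.1 to 81.4).

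The 10 genes, the gene lists and the tests were chosen with earlier results of these data known. Named genes of a list were taken from those called, with a mean of at least 10 CPM in a population of the comparison and the up to 4 largest changes, and the text gives a subset of them. The gene most like Cdkn2c is not reported here.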

Additional observations from a re-analysis of the deposited data

Results flagged for a closer look

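In 30 groups of 4 values (10 genes in 3 populations), the highest or the lowest library lay far from the other 3 in 2, where chance alone sets apart about 1 group in 20. Ccnd2 in Tconv library 3 was 1322.5 CPM, while the other Tconv libraries lay between 921 and 968 CPM. Ccnd3 in Eos+ Treg library 3 was 239 CPM, while the other Eos+ Treg libraries lay between 301 and 311 CPM. Without Eos+ Treg library 3, Ccnd3 stayed called lower against both other populations, and Ccnd2 in Eos+ Tregs against Tconv was called lower (edgeR adjusted p = 0.0479).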

How the results depend on the processing

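The Ccnd3 and Cdkn2d calls in Eos+ Tregs, and the Btg1 call in Eos- Tregs against Tconv, held in every alternative run except the test against a 1.5-fold change, which called 0 of the 10 genes in each comparison and 778, 1854 and 513 genes in all. In Eos+ Tregs against Tconv the replicate block called 6 of the 10 genes, with or without the 3 libraries numbered 1. In Eos- Tregs against Tconv the block called 4, or 2 (Cdkn1b and Btg1) without those libraries, when Ccnd3 and Cdkn2c were lost, DESeq2 called 2, and the fit without the 3 libraries numbered 1 called 2. Leaving out each library in turn gave 1 to 3 there. The block without the libraries numbered 1 was chosen after seeing the data. Beyond the calls given above, the replicate block changed no call of the 10 genes. For the named genes of the lists, 1280 values under an alternative kept their call and 232 lost it, and none turned in sign. Of the list counts under an alternative, 399 stayed within 1.5 times the reported count and 141 did not.

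Changes near 0 turned in sign. Leaving out each library gave -0.07 to 0.25 (log2) for Cdk6 and -0.26 to 0.09 for Btg2 in Eos+ against Eos- Tregs. It gave -0.64 to 0.03 for Ccnd1, -0.21 to 0.08 for Cdkn2c and -0.20 to 0.13 for Btg2 in Eos+ Tregs against Tconv. It gave -0.12 to 0.48 for Ccnd1, -0.32 to 0.46 for Cdkn1a and -0.11 to 0.22 for Btg2 in Eos- Tregs against Tconv. There Cdkn1a was also 0.01 with limma-voom and 0.10 with the replicate block, and Ccnd1 was -0.34 without the libraries numbered 1 and -0.37 with the block added; the cause was not tested. None of these was called. Library totals in place of TMM moved the median of all genes by under 0.1. Counting depth limits Ccnd1, Cdkn1a and Cdkn2c most.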
